A study of Homo sapiens with 12 samples.

Results

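The comparison described here set GC-resistant MM1R cells against GC-sensitive MM1S cells when both lines had been exposed to withaferin A (WA). It rests on 6 of the 12 sequenced libraries, 3 MM1R and 3 MM1S cultures given 1 µM WA for 3 h, chosen by their labels alone. The other 6 libraries, 3 untreated cultures of each line, served to see which differences between the lines were also present without WA. MM1R cultures were of passages 4, 6 and 7 and MM1S cultures of passages 16, 22 and 23, in both conditions. The lines shared no passage number, so that line and passage cannot be told apart. Both lines were grown in RPMI-1640 with serum and stem from 1 patient with multiple myeloma (MM), which makes each line a single model of its GC response. The labels call the control cultures untreated and name no solvent.

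MM is a cancer of plasma cells, the antibody-secreting end stage of the B-cell lineage. Glucocorticoids (GC) kill sensitive myeloma cells through the glucocorticoid receptor, the product of NR3C1, and loss of that receptor is a known route to resistance. WA is a plant steroidal lactone that binds cysteines covalently. Such compounds are known to induce heat shock chaperones under the factor HSF1 and antioxidant enzymes under NRF2. BTK, a kinase that relays signals from the B-cell receptor, holds a cysteine of this kind in its active site.

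All 9 plasma cell markers, SDC1 and XBP1 among them, had more than 10 reads in every WA library, and none of the 9 passed the limits between the lines. Their summed level was 4926 to 5829 CPM (reads scaled to a common library size) in MM1R and 5052 to 5367 CPM in MM1S. Most markers of other cell types were unread or nearly so. At most 10 reads in any of the 12 libraries were found for 5 of 6 B cell, 6 of 9 T and NK cell, 6 of 8 monocyte and macrophage, 4 of 6 fibroblast and 5 of 6 erythroid markers, and the defining genes CD3G, NKG7, FCGR3A, S100A8, COL1A2, COL3A1, LUM and HBA2 had none under WA. The exceptions were read in both lines under WA. CR2 had 516 to 781 reads, CD3E 88 to 164, COL1A1 43 to 294 and HBB 63 to 178, and PDGFRB, GNLY, S100A9, ITGAM and CD2 had at most 41. None of the listed markers was called between the lines, against 3.04% of all tested genes, and their part in the results was not tested. As RNA came from whole cultures, fewer cells with a transcript and fewer transcripts per cell cannot be told apart. The summed levels of these other lists were at most 43.5 CPM, for B cell markers, of which CR2 alone was measured above the filter.

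The 6 WA libraries held 17625110 to 18863663 reads on genes. Correlations of log CPM were 0.985 to 0.991 within MM1R, 0.979 to 0.990 within MM1S and 0.953 to 0.971 between the lines. The MM1S culture of passage 16 stood apart from its group. Of 349 genes called between the lines with a mean of at least 1 CPM, 61 were at least 2-fold away from the mean of the other 2 MM1S cultures in that library, against 33 and 22 for passages 22 and 23 and 8 to 12 for the MM1R cultures. Values without passage 16 are given beside the named genes whose log2 difference it moved by more than 0.3, apart from genes whose fold is given as a bound.

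A gene was called when its adjusted p was below 0.01 and its log2 difference at least 1 in size (quasi-likelihood test of edgeR, with the 4 groups of libraries fitted together). Under WA, 428 of 14085 tested genes (3.04%) differed between the lines, 230 higher (1.63%) and 198 lower (1.41%) in MM1R. Without WA, 419 genes (2.97%) were called. The groups of 3 libraries did not overlap under WA for 4104 genes (29.1% of those tested), among them all 428 called genes. Without either culture of passage 16, 817 genes were called under WA and 755 untreated.

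Most differences were present in both conditions. Of the genes called under WA, 326 were also called untreated, with the same direction in all 326, which is 76.2% of the WA calls and 77.8% of the untreated calls. These held differences comprised 168 genes higher and 158 lower in MM1R. Their median size was 2.26 on the log2 scale under WA and 2.32 untreated, and 176 of the 326 were smaller under WA. No gene was called in opposite directions. Same-passage cultures entered both conditions, so that the 2 sets of calls are not independent.

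A further 102 genes passed the limits only under WA, 62 higher and 40 lower in MM1R. All 102 already leaned the same way in untreated cells, where 79 had an adjusted p below 0.05. Their median difference was 1.63 under WA and 1.04 untreated. In turn 93 genes, 41 higher and 52 lower in MM1R, passed the limits only untreated, with a median of 1.49 untreated and 1.08 under WA. Because these classes were chosen by the limits, the medians describe them and test nothing.

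The direct test of a change, the line difference under WA minus that in untreated cells, called 0 of 14085 genes at an adjusted p of 0.05 (0%). At an unadjusted p below 0.05 it gave 97 genes (0.689%), a share under the nominal 5%. This fit took no account of the pairing of cultures by passage, so that 0 calls do not show an absence of change. With passage as a fixed block in edgeR 286 genes had an unadjusted p below 0.05, and with a random block in limma-voom 337. DESeq2 called 1 gene, DNAJA4. With passage as a replicate block, edgeR called 0 and DESeq2 called 6, namely DNAJA4, PHLDA3, MDM2, TNFRSF10B, EDA2R and GADD45B, which are described below with their values.

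**Figure D1:**
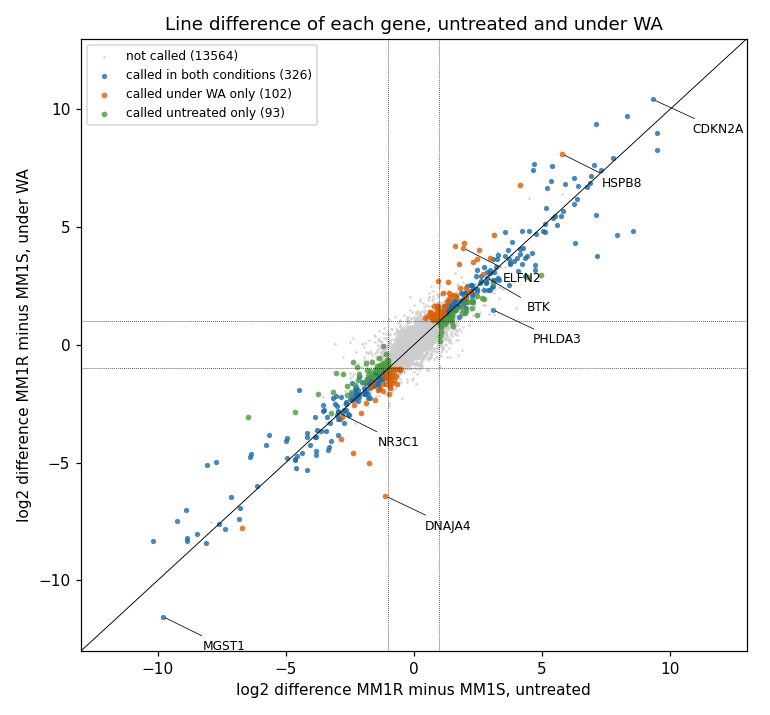
Each point is 1 of 14085 genes, with the log2 difference MM1R minus MM1S in untreated cells on the horizontal axis and under WA on the vertical axis; dotted lines mark a difference of 1 and the diagonal equal differences. The 326 genes called in both conditions follow the diagonal, and DNAJA4 lies farthest below it among the labelled genes.

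BTK (chromosome X: 100604326 to 100645784, minus strand, 19 exons; GENCODE on GRCh37, the hg19 build named in the labels) kept its higher level in MM1R under WA. It had 844, 873 and 672 reads in MM1R with WA and 95, 147 and 103 in MM1S with WA. Untreated cultures had 1289, 1152 and 1053 reads in MM1R and 211, 155 and 156 in MM1S. No MM1R library overlapped an MM1S library, and both lines had fewer BTK reads with WA. The difference was 2.86 ± 0.17 (log2 ± SE, n = 3 libraries each, 7.24-fold; edgeR adjusted p = 1.9e-07) under WA and 2.84 ± 0.17 untreated. The log2 change with WA was -0.51 in MM1R (adjusted p = 0.044) and -0.52 in MM1S (adjusted p = 0.075), and the line difference changed by 0.01 ± 0.23 on the log2 scale (unadjusted p = 0.96).

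NR3C1 (chromosome 5: 142657496 to 142815077, minus strand, 9 exons; GRCh37) was lower in MM1R in both conditions. Under WA it had 331, 232 and 196 reads in MM1R and 2414, 1785 and 1580 in MM1S. The log2 difference was -2.87 ± 0.22 (7.31-fold lower; edgeR adjusted p = 3.1e-06), beside -2.96 ± 0.23 untreated. Neither line had a called response of NR3C1 to WA, with log2 changes of -0.02 in MM1R and -0.11 in MM1S. Of 25 tested genes in the list of the glucocorticoid receptor and its targets, 2 were called under WA (8%, against 3.04% of all tested genes), both lower in MM1R. The other was ZBTB16, a transcription factor gene known as a GC target, with 3, 1 and 2 reads in MM1R and 20, 31 and 42 in MM1S, at least 9.84-fold lower. Its call was lost without any 1 of 6 libraries, with the highest adjusted p (0.038, edgeR) without the MM1R WA culture of passage 6. HSD11B1, which encodes an enzyme that activates cortisone, was called untreated (4.95) and missed the limit under WA (2.98, adjusted p = 0.021). The median of the list was -0.06 on the log2 scale under WA, against -0.01 over all tested genes.

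In the B-cell receptor pathway, CD79A and CD79B form the signalling part of the receptor, BTK and the exchange factor VAV2 act below it, and NFATC1 is a transcription factor reached through calcium. These 5 were the genes called among the 32 tested (15.6%, against 3.04% of all tested genes), 4 higher and 1 lower in MM1R, with a median of 0.09 over the list. CD79A had 82, 63 and 43 reads in MM1R with WA against 5, 4 and 4 in MM1S with WA (log2 difference 3.87 ± 0.37). CD79B had 683, 722 and 709 against 448, 225 and 272, where the passage 16 culture of MM1S was the highest of its group. Its difference was 1.23 under WA and 1.08 untreated, where it missed the limit (adjusted p = 0.012). It was 1.57 under WA without passage 16, and the call was lost without any 1 of the other 5 WA libraries (adjusted p of up to 0.032, without passage 22 of MM1S).

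VAV2 was low in all MM1R libraries, with 18, 17 and 24 reads against 161, 375 and 408 in MM1S with WA (log2 difference -3.92 ± 0.39, and -4.24 without passage 16). NFATC1 differed by 1.81 under WA (edgeR adjusted p = 0.0080, close to the limit) and 2.02 untreated (adjusted p = 0.0041). Its call was not recomputed with libraries left out. Of the 7 tested kinases of the Hinge-6 group, BTK alone was called (14.3%, against 3.04% of all tested genes). These kinases share a cysteine at the position held by BTK. JAK3 at -0.48 and TEC at -0.31 did not pass the limits, and BLK stood at 1.55 with an adjusted p of 0.33. No member of either list had an unadjusted p below 0.05 for a change of the difference.

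**Figure D2:**
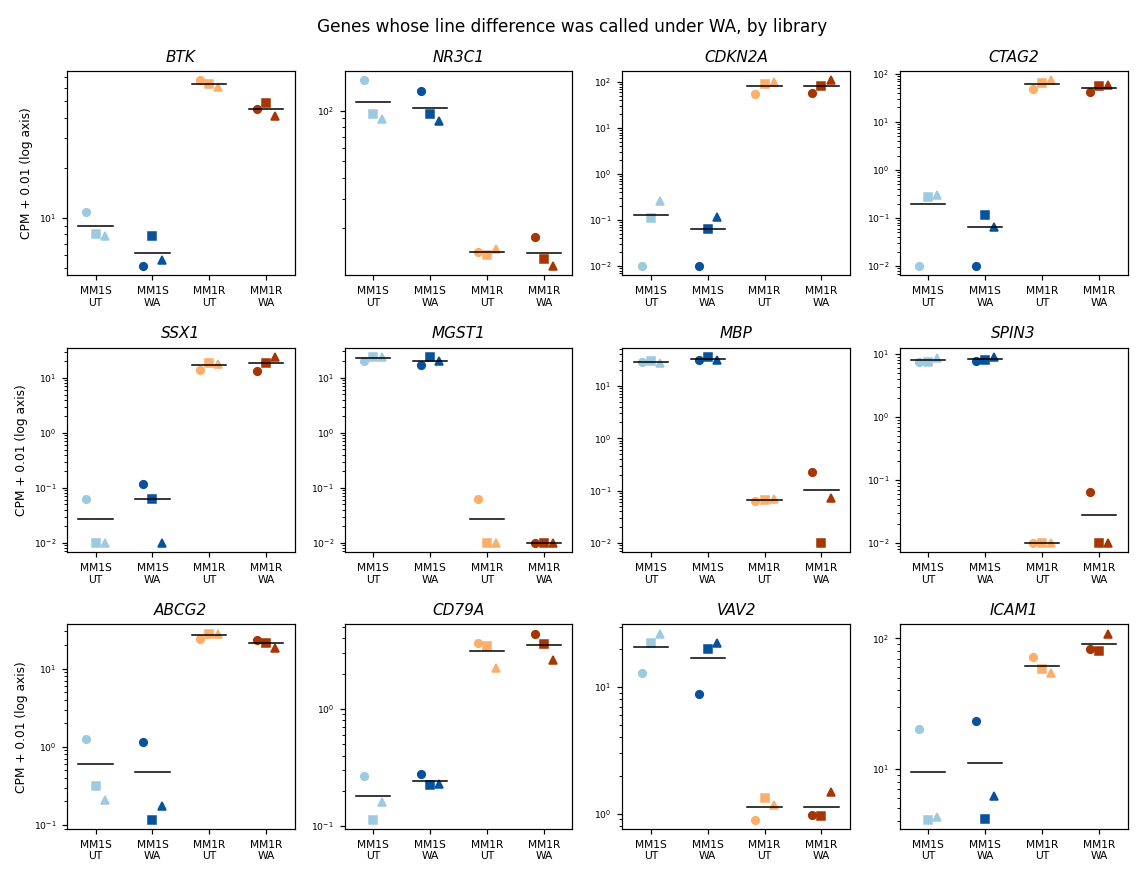
CPM plus 0.01 on a log axis for 12 genes in all 12 libraries, in columns for untreated (UT) and WA-exposed MM1S and MM1R; circles, squares and triangles are passages 16, 22 and 23 of MM1S or 4, 6 and 7 of MM1R, and bars are group means (n = 3). The levels of the lines stay apart in both conditions, and ICAM1, ABCG2 and VAV2 show the MM1S culture of passage 16 nearer to MM1R.

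Most genes with the largest differences under WA were nearly absent from 1 of the lines, with and without WA. DNAJA4, described below, was low in both lines without WA. Among the 428 called genes, 49 had at most 3 reads in every MM1S library with WA, and 37 of these were also called untreated. In 33 genes every MM1R library with WA had at most 3 reads, and 28 of these were also called untreated. Fold differences of such genes are bounds that set the mean of the other line against 3 reads per library. These bounds allow for neither counting error nor spread between cultures.

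CDKN2A and CDKN2B, neighbouring genes on chromosome 9 that encode inhibitors of the cell cycle kinases, were read almost only in MM1R. CDKN2A (21967751 to 21995300, minus strand; GRCh37) had 1096, 1471 and 1815 reads in MM1R with WA against 0, 1 and 2 in MM1S with WA, at least 517-fold higher. Its untreated reads were 1044, 1616 and 1724 against 0, 2 and 5. CDKN2B (22002902 to 22009304, minus strand) had 77, 76 and 86 reads against 0 in all 3 MM1S libraries with WA, at least 28-fold higher. Both genes were thus near 0 in MM1S with and without WA.

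Cancer-testis antigens are normally silent outside the germ line. Of 45 genes listed 12 passed the filter on low counts, and 8 of the 12 were called (66.7%, against 3.04% of all tested genes), all higher in MM1R. Since a gene silent in MM1S passed the filter through MM1R alone, this count supports nothing on its own. CTAG2 had 787, 976 and 953 reads in MM1R with WA against 0, 2 and 1, at least 318-fold higher. SSX1 had 255, 326 and 397 reads against 2, 1 and 0, at least 115-fold higher. MAGEA6, with 73, 60 and 53 reads against 0 in all 3, has near-identical copies between which reads may be divided. MAGEC3 was read in both lines, 248, 182 and 174 reads against 45, 47 and 46 (log2 difference 2.19 ± 0.26). The remaining calls were MAGEA10, MAGEA12, CSAG1 and PAGE5, with fitted differences from 4.67 to 5.54, and PAGE5 was the only one not called untreated (3.12). PAGE5 had at most 3 reads in every MM1S library with WA, so that its fold there is a bound, at least 3.83.

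Many of these genes lie on the X chromosome. Of 440 tested genes placed there by GENCODE, 24 (5.45%) were called higher in MM1R under WA, against 1.58% of the 12501 placed genes, and 8 of the 24 belong to the cancer-testis list. On the other side stood numbered zinc finger genes (symbols ZNF and a number), many of which encode DNA-binding repressors. Of 427 tested, 27 were lower and 5 higher in MM1R under WA, so that 6.32% were lower against 1.41% of all genes. Of the 27, 20 lie on chromosome 19, where 194 were tested. Untreated, 30 were lower and 6 higher. Both sets hold genes silent in 1 line that passed the filter through the other line alone, so that the counts for chromosome X and for zinc finger genes support nothing on their own. ZNF175 (chromosome 19: 52074536 to 52095763; GRCh37) had 1, 0 and 0 reads in MM1R with WA against 66, 84 and 100, at least 26.4-fold lower.

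Further genes were read almost only in MM1S under WA. MGST1, a microsomal glutathione transferase that detoxifies electrophiles, had no read in the 3 MM1R libraries with WA and 312, 444 and 362 reads in MM1S, at least 118-fold lower in MM1R. MBP, the gene of myelin basic protein, had 4, 0 and 1 reads against 585, 668 and 558 (log2 difference -8.33 ± 0.31). SPIN3, a relative of the histone reader spindlin, had 1, 0 and 0 against 142, 148 and 163, at least 47.9-fold lower. PKP3, a desmosomal plaque protein, had 2, 2 and 5 reads against 28, 292 and 314, with passage 16 well below the other MM1S cultures. Its difference was -6.01 ± 1.14 and, without passage 16, -6.53. The call was lost without any 1 of the other 5 WA libraries (adjusted p of up to 0.027, without passage 6 of MM1R). With DNAJA4, described below, 4 further genes completed the largest negative differences. NUDT12 had 4, 0 and 0 reads in MM1R with WA against 46, 80 and 43 in MM1S, a fitted difference of -5.22. With 1 library left out that value ranged from -8.81 to -4.66, so that its size is uncertain. TLCD5, ZNF826P and the uncharacterised LOC107985004 were at the floor in MM1R, at least 18.9-fold, 19.6-fold and 13.6-fold lower there, respectively.

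The genes with the largest positive differences also included metabolic and noncoding ones. QPRT, an enzyme of NAD synthesis from quinolinate, had 262, 259 and 228 reads in MM1R with WA against 7, 0 and 0 in MM1S, where passage 16 held all the reads (log2 difference 6.73). Without that passage the fitted value was 11.02, which rests on 0 reads in MM1S and is no measured size. PCSK1N, an inhibitor of a prohormone convertase, had 103, 144 and 120 reads against 2, 1 and 0, and the carboxylesterase gene CES4A 116, 82 and 86 against 1, 0 and 1. They were at least 43-fold and 33-fold higher, respectively. CERNA2, a noncoding RNA, had 52, 38 and 48 reads against 1, 0 and 0, at least 16.1-fold higher. LINC01518, a long noncoding RNA, had 781, 665 and 877 reads in MM1R with WA against 243, 225 and 195 without. Its MM1S libraries held 1 to 6 reads in either condition, and its line difference was 7.63 ± 0.30 under WA (8.03 without passage 16) and 7.05 ± 0.34 untreated.

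Several differences concerned cell surface genes. Among 60 tested genes of axon guidance and adhesion, 5 were higher and 3 lower in MM1R under WA (13.3% called, against 3.04% of all tested genes), with a list median of -0.01. RELN, a secreted guidance protein, had 873, 1011 and 743 reads against 95, 124 and 139 (log2 difference 2.94 ± 0.22). PLXNB2, a semaphorin receptor, had 2941, 2800 and 3434 against 1005, 660 and 757 (3.99-fold). ESAM and PODXL2, adhesion proteins of endothelium and leukocytes, differed by 2.07 and 2.62, and by 2.37 and 2.93 without passage 16. The 3 lower genes were PLXND1 (-2.07), the integrin subunit ITGA4 (-1.14) and ALCAM (-1.02), and all 3 were also called untreated.

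ICAM1, an adhesion ligand and known NF-kB target, had 1549, 1431 and 1786 reads in MM1R with WA and 427, 78 and 114 in MM1S with WA. Its difference was 3.02 ± 0.60 (edgeR adjusted p = 0.0055), 2.69 untreated (adjusted p = 0.011) and 4.12 under WA without passage 16. The call was lost without any 1 of the other 5 WA libraries (adjusted p of up to 0.029, without passage 23 of MM1S). It was the only call among 21 tested NF-kB targets under WA, and REL, at -1.33, was called untreated only (-1.63). CD52 and TNFRSF8, lymphoid surface antigens, were the 2 calls of 13 B-lineage genes, higher in MM1R by 3.78 ± 0.35 and 3.54 ± 0.44. Without passage 16 they differed by 4.57 and 3.18. None of 30 plasma cell factors and surface antigens was called under WA (0%, against 3.04% of all tested genes). CCR10 stood at 0.94 against 1.07 untreated.

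Among 13 multidrug transporters, ABCG2, a drug efflux pump, had 430, 381 and 305 reads in MM1R with WA against 21, 2 and 3 (log2 difference 5.46 ± 0.53, 7.21 without passage 16). ABCG1, a cholesterol transporter, was lower in MM1R by 1.01 at the limit, and it was -0.86 without passage 16, when the call was lost, as it was without passage 6 or 7 of MM1R. ABCB1 differed by 2.18 with an adjusted p of 0.019 and was not called. BCL2L2, a survival gene, was the only call of 18 BCL2 family members (5.56%, against 3.04% of all tested genes). It had 54, 52 and 50 reads against 4, 5 and 6 (3.42 ± 0.30). ACP5, the tartrate-resistant acid phosphatase, was the only call of 17 secreted factors and receptors (5.88%). It had 125, 87 and 74 reads against 6, 3 and 2 (4.71 ± 0.35, and 5.24 without passage 16). Untreated differences of BCL2L2 and ACP5 were 3.75 and 4.78.

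In all, 36 of 406 list members (8.87%) were called under WA, against 3.04% of all tested genes. The lists were written with earlier results of these data known, so that this share is a description of the lists only.

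**Figure D3:**
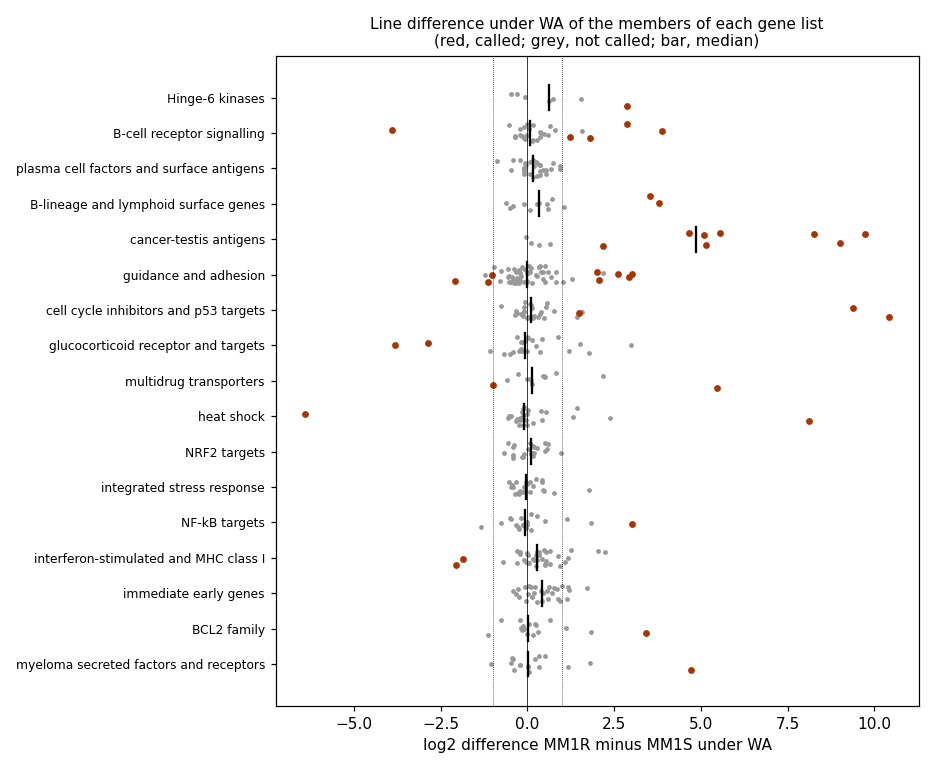
Log2 difference MM1R minus MM1S under WA for every tested member of 17 gene lists, with called genes in red, others in grey, list medians as bars and a difference of 1 dotted. List medians lie within 1 of 0 except for the cancer-testis antigens (4.87), and no member of the NRF2, integrated stress response, immediate early or plasma cell lists is red. Of all tested genes, 3.04% were called.

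The heat shock list held 2 calls among 28 tested genes under WA (7.14%, against 3.04% of all tested genes) and none untreated. They were DNAJA4, which responded to WA in MM1S, and HSPB8, which responded in MM1R. Each passed the filter on low counts only through the WA libraries of the line that responded, so that these counts support nothing on their own. DNAJA4 encodes a cytosolic partner of HSP70 and HSPB8 a small heat shock protein that works with BAG3. Heat shock elements, the sites of HSF1, are built from inverted repeats of the letters GAA. Promoter windows of the 2 genes, with that of the HSP40 gene DNAJB1 for comparison, are shown with each match to GAANNTTC or TTCNNGAA in capitals, where N is any base. They come from RefSeq on GRCh38.p14 and run from 250 bases before to 50 after a start. Where several starts were listed, the one with most matches was taken (3 each for DNAJA4 and DNAJB1).
DNAJA4 (chr15:78264312-78264611, plus strand): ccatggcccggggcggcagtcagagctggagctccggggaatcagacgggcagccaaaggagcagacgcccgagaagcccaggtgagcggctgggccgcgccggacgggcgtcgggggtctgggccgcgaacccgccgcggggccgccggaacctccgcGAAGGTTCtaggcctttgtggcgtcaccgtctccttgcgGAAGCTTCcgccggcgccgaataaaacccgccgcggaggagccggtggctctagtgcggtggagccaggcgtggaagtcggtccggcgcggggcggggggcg
HSPB8 (chr12:119178681-119178980, plus strand): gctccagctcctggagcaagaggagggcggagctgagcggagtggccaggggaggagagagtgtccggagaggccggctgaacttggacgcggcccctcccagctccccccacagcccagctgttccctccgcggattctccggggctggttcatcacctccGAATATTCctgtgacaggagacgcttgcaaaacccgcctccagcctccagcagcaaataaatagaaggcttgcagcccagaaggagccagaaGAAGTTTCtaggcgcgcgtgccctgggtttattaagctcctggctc
DNAJB1 (chr19:14518348-14518647, minus strand): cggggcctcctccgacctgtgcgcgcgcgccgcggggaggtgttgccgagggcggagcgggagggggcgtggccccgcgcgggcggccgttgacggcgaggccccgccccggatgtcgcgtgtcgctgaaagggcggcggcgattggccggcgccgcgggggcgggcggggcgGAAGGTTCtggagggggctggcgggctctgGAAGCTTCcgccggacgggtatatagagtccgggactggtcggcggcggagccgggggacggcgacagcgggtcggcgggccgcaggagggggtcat

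Each of the 3 windows held 2 matches and none held the longer form of 3 units, GAANNTTCNNGAA or TTCNNGAANNTTC. The shorter words read alike on either strand, the longer words are each other's reverse complement, and overlapping matches were counted. A match to the shorter form was present in 13.5% of all 35116 windows, 2 or more matches in 1.71%, and the longer form in 0.490%. Counted by gene, 18 of 26 tested heat shock genes with a window had the shorter form in at least 1 window and 9 the longer, against 16.2% and 0.608% of all 27305 genes with a window. The 26 genes were listed as heat shock genes and had 42 windows between them, so that their higher share supports nothing on its own. The printed windows were chosen for their matches, so that their own number of matches is no result. A match describes the letters and says nothing of binding in these cells.

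DNAJA4 was at similar low counts in untreated cells of both lines, with 6, 1 and 1 reads in MM1R and 7, 5 and 7 in MM1S. With WA it had 285, 102 and 359 reads in MM1S and 2, 3 and 3 in MM1R. All MM1S cultures with WA were far above every other library, and the MM1R cultures with WA were within the range of the untreated ones. The log2 response to WA was 5.35 in MM1S (edgeR adjusted p = 2.6e-05) and 0.05 in MM1R (adjusted p = 0.98). Under WA the gene was thus at least 79.2-fold lower in MM1R (adjusted p = 1.2e-05). That bound is close to the fitted 85.4-fold, since MM1R held 2 to 3 reads, and it leaves out the spread between the MM1S cultures. Its line difference changed by -5.30 ± 1.19 on the log2 scale. The change had the smallest p of all genes by edgeR (0.00057 unadjusted), which did not survive adjustment. DESeq2 gave an adjusted p of 0.0022, and 0.00027 with the replicate block.

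HSPB8 (chromosome 12: 119609360 to 119662660, plus strand; GRCh37) had the opposite pattern. It had no read in any of the 6 MM1S libraries, 7, 9 and 4 reads in untreated MM1R and 16, 30 and 51 in MM1R with WA. The difference was at least 11.6-fold under WA (edgeR adjusted p = 0.0011) and at least 2.38-fold untreated (adjusted p = 0.022). A change of the difference cannot be estimated, since MM1S was at 0 in both conditions. The response in MM1R was 2.33 on the log2 scale (adjusted p = 0.022).

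The other heat shock genes did not pass the limits between the lines, including those that responded most. DNAJB1 rose in both lines, by 5.40 on the log2 scale in MM1R and 4.91 in MM1S, and its line difference under WA was 0.40 (adjusted p = 0.54). The list median was -0.11 under WA and -0.12 untreated. HSPA2, a testis-enriched HSP70, differed by -2.76 untreated and -0.52 under WA, and neither difference passed the limits (adjusted p of 0.012 and 0.51). The unadjusted p of its change was 0.015.

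No call arose in 24 tested NRF2 targets (0%, against 3.04% of all tested genes). HMOX1, which encodes the heme-degrading heme oxygenase, rose by 6.62 in MM1R and 6.92 in MM1S on the log2 scale, and the lines differed by 0.50 under WA (adjusted p = 0.47). Nor was any of 24 genes of the integrated stress response or of 29 immediate early genes called between the lines. At a share of 3.04%, lists of this length would hold few calls or none, so that 0 calls do not show that the lines were alike. The medians over these lists were 0.09, -0.05 and 0.41 under WA and 0.12, -0.38 and -0.14 untreated. Of the immediate early genes, which encode quickly induced transcription factors and phosphatases, 21 of 29 had a more positive line difference under WA. So had 19 of the 24 integrated stress response genes and 5 of the 24 NRF2 targets. JUND differed by 0.21 under WA against -0.55 untreated, and KLF2 by 0.61 against -0.29, with unadjusted p of 0.039 and 0.035 for the change. Direction alone was not tested, and over all tested genes the median change was -0.02.

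Several targets of the tumour suppressor p53 had smaller fitted differences under WA. The list of cell cycle inhibitors and p53 targets held 6 calls untreated, all higher in MM1R. Under WA it held 3 (9.38%, against 3.04% of all tested genes), again all higher. They were PHLDA3 and the cell cycle inhibitors CDKN2A and CDKN2B, both near 0 in MM1S in either condition. Only PHLDA3 of the 3 had a smaller fitted difference under WA. Of 32 tested members, 8 had an unadjusted p below 0.05 for the change (edgeR without a block), against 0.689% of all genes. Of the 32 changes 22 were negative, beside 19 of 24 in the NRF2 list and a median change of -0.02 over all tested genes. Genes are not independent replicates, so that this count is a description.

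PHLDA3, an inhibitor of AKT signalling, had 319, 455 and 589 reads in untreated MM1R against 39, 64 and 72 in untreated MM1S. With WA the reads were 523, 741 and 940 against 287, 196 and 349. The groups did not overlap in either condition, but MM1S came closer to MM1R. The line difference was 3.09 ± 0.35 untreated and 1.49 ± 0.30 under WA (edgeR adjusted p = 0.0062; up to 0.037 with 1 library left out, the call being lost without any 1 of 5), and MM1S rose 5.04-fold with WA (adjusted p = 0.00078). MM1R had a log2 change of 0.74 with WA (adjusted p = 0.12).

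TNFRSF10B, the death receptor DR5 for the ligand TRAIL, had 1709, 1355 and 1279 reads in untreated MM1R against 700, 778 and 811 in MM1S. With WA it had 1464, 1259 and 1472 against 1310, 1071 and 1554, so that the groups overlapped. The log2 difference was 1.03 ± 0.14 untreated and 0.16 ± 0.14 under WA. The response was 0.87 in MM1S (adjusted p = 0.0019) and 0.00 in MM1R.

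MDM2, the ubiquitin ligase that degrades p53, had 8173, 8984 and 9090 reads in MM1R with WA against 6150, 6869 and 8470 in MM1S with WA. Its difference was 0.36 ± 0.15 under WA and 1.03 ± 0.15 untreated. EDA2R, a receptor of the same family as TNFRSF10B, had 456, 525 and 673 reads against 566, 605 and 740 with WA. Its difference was -0.13 ± 0.17 under WA and 0.92 ± 0.18 untreated, and MM1S rose 2.47-fold (adjusted p = 0.00042). For both genes the groups overlapped under WA and not in untreated cells.

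GADD45B, a stress-inducible gene of growth arrest, went the other way. It had 2601, 2097 and 3292 reads in MM1R with WA and 1980, 1328 and 1682 in MM1S with WA, with no overlap. The difference was 0.76 ± 0.21 under WA, which missed the limits, and 0.06 ± 0.20 untreated. CDKN1A, the classical p53 target p21, showed log2 responses of 1.56 in MM1R (adjusted p = 0.033) and 1.82 in MM1S (adjusted p = 0.022). Its line difference was 1.43 under WA and 1.69 untreated, neither of which passed the limits.

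For these 5 genes edgeR gave no adjusted p below 0.05 for the change, with or without the block. The unadjusted p without the block was 0.0034 for PHLDA3, 0.0008 for TNFRSF10B, 0.0073 for MDM2, 0.00086 for EDA2R and 0.029 for GADD45B. DESeq2 with the replicate block gave adjusted p of 7.5e-05, 0.017, 0.00027, 0.017 and 0.0049, and without the block it called none of the 5. GADD45B was named for that result, after its values were seen.

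**Figure D4:**
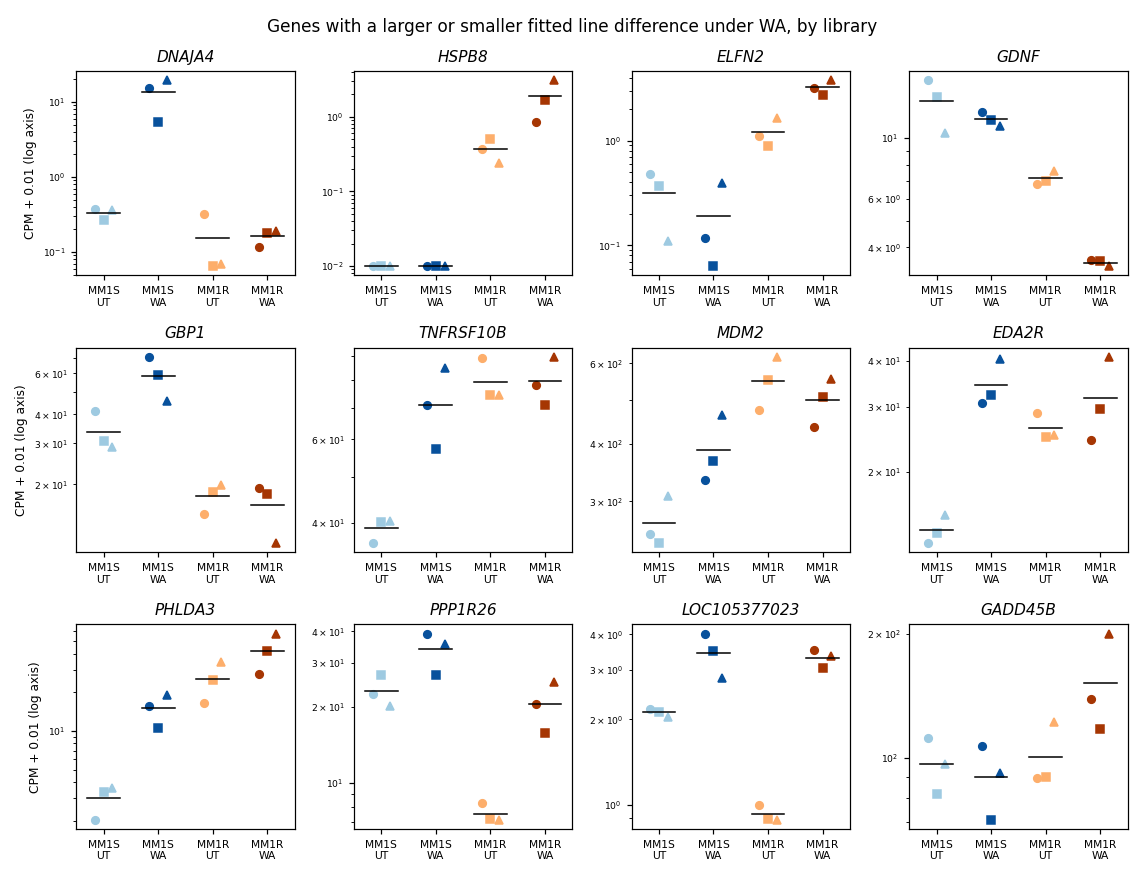
CPM plus 0.01 on a log axis for 12 genes in all 12 libraries, in columns for untreated (UT) and WA-exposed MM1S and MM1R; circles, squares and triangles are passages 16, 22 and 23 of MM1S or 4, 6 and 7 of MM1R, and bars are group means (n = 3). DNAJA4 is high only in MM1S with WA, HSPB8 is read only in MM1R, and TNFRSF10B and EDA2R of the lines overlap under WA but not in untreated cells.

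Beyond these lists, the genes called only under WA with the smallest p for a change were mostly of modest size. ELFN2, a neuronal membrane protein, had 60, 48 and 62 reads in MM1R with WA and 2, 1 and 7 in MM1S with WA, against 21, 16 and 28 and 9, 7 and 2 untreated. Its difference was 4.11 ± 0.54 under WA and 1.94 ± 0.52 untreated. IL21R, the receptor of the B-cell cytokine IL-21, had 609, 581 and 467 reads against 255, 224 and 248 with WA, a difference of 1.25 ± 0.13 beside 0.77 ± 0.12 untreated. The noncoding RNAs LINC02362 and HCG11 differed by 1.24 and 1.66 under WA and by 0.57 and 0.77 untreated, and the call of HCG11 was lost without any 1 of 3 libraries (adjusted p of up to 0.016, without passage 22 of MM1S).

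GDNF, GBP1 and GRK3, lower in MM1R in both conditions, passed the limits under WA alone. GDNF, a growth factor first known for nerve cells, had 67, 63 and 56 reads in MM1R with WA and 131, 127 and 130 without, whereas MM1S had 230, 218 and 203 with WA and 314, 274 and 209 without. The line difference was -1.74 ± 0.18 under WA (edgeR adjusted p = 3.8e-05) and -0.93 ± 0.17 untreated. The fall in MM1R was -1.02 on the log2 scale (adjusted p = 0.0024), and that in MM1S, -0.21, did not pass.

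GBP1, an interferon-induced GTPase, had 363, 323 and 184 reads in MM1R with WA against 1305, 1106 and 840 in MM1S with WA. It differed by -1.85 ± 0.22 under WA and -0.92 ± 0.22 untreated, and the response was 0.80 in MM1S (adjusted p = 0.028) and -0.12 in MM1R (adjusted p = 0.78). GBP2, of the same family, was lower in MM1R in both conditions (-2.07 under WA and -1.79 untreated) and rose in both lines with WA, by 1.13 in MM1R and 1.41 in MM1S. These were the 2 calls among 41 interferon-stimulated and MHC class I genes (4.88%, against 3.04% of all tested genes). IFIT1, at 2.23, had an adjusted p of 0.015 and was not called. GRK3, a kinase of G protein-coupled receptors, differed by -1.33 under WA and -0.69 untreated, and its call was lost without any 1 of 3 libraries (adjusted p of up to 0.017, without passage 6 of MM1R).

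Of the genes called only in untreated cells, PPP1R26, a regulator of protein phosphatase 1, had 160, 130 and 122 reads in untreated MM1R and 385, 281 and 412 with WA. MM1S had 436, 517 and 405 untreated and 721, 502 and 652 with WA. The line difference was -1.62 ± 0.19 untreated and -0.72 ± 0.18 under WA, and MM1R rose 2.72-fold (adjusted p = 0.00034). The uncharacterised LOC105377023 had 19, 16 and 15 reads in untreated MM1R and 66, 54 and 55 with WA, and its difference was -1.20 untreated and -0.05 under WA. The cation channel gene TRPC1 and the phospholipase gene PLCB4 stood at -0.39 and -0.54 under WA against -1.07 and -1.38 untreated. GPBAR1, a bile acid receptor, and PHETA1, an endosomal protein, stood at 1.26 and 0.55 under WA against 2.48 and 1.06 untreated, with GPBAR1 at 1.60 under WA without passage 16. As these genes were chosen by the smallest p for a change, their values are descriptions.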

How the data were processed

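RNA of 12 cultures (3 in each of 4 groups by cell line and treatment, from the labels) was sequenced as paired reads on the BGISEQ-500. The authors checked reads with FastQC 0.11.5, mapped them to hg19 with STAR 2.7.3a and deposited raw counts per gene for 43735 entries. The annotation and the strand setting are not given in the sources used here, so reads of a gene and an overlapping antisense gene cannot be told apart. Entries with a copy number in their name (4743) held 0.187% of reads. A further deposited table of DESeq2-normalized values was not used.

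Genes were kept with filterByExpr (minimum 10 reads), which left 14085, and libraries were scaled by TMM. Both line differences and their change with WA were tested in 1 fit of 4 groups with edgeR 4.0.16 (quasi-likelihood, Benjamini-Hochberg adjustment over all tested genes) in R 4.3.3. The limits for a line difference were 0.01 (adjusted p) and 1 (size on the log2 scale), as in the study, and 0.05 (adjusted p) for the change. The line differences and the change by edgeR, DESeq2 and limma-voom were tested on simulated data. Genes with at most 3 reads in every library of a group were at the floor. Their fold bounds set the mean CPM of the other line against 3 reads per library. These bounds allow for neither counting error nor spread between cultures, and reads carried no molecular identifiers. Replicates are cultures of different passage. Replicates differed beyond sampling noise, with a chi-square over genes of 8.06 to 44.3 per degree of freedom.

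The untreated and the WA culture of a passage deviated together from their group means (r of 0.39, 0.18 and 0.22 for passages 4, 6 and 7 and 0.71, 0.25 and 0.44 for 16, 22 and 23). The highest r of an untreated culture with the WA culture of another passage was 0.31 for passage 22, above its own, and 0.37 for passage 23. The passage number comes from the labels, and passage was treated as pairing the cultures. Alternatives used DESeq2 1.42.0, limma 3.58.1, other filters and limits, a replicate block, and libraries left out. The comparison, the gene lists and the named genes were chosen with earlier results of these data known. Named are BTK and NR3C1, the 10 largest differences per direction (mean of at least 1 CPM, no overlap), the 4 smallest p for a change per direction among genes called only under WA or only untreated, the 6 smallest p for a change, and up to 4 called members of each list by p. Other names were chosen after their values were seen. Figures were drawn with matplotlib 3.10.9.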

Additional observations from a re-analysis of the deposited data

Results flagged for a closer look

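In 6 genes the response to WA differed between MM1R and MM1S by a direct test, with passage as a replicate block in DESeq2 (adjusted p). For DNAJA4 the line difference moved by -5.16 on the log2 scale (0.00027), for PHLDA3 by -1.58 (7.5e-05), for MDM2 by -0.66 (0.00027), for EDA2R by -1.06 (0.017) and for TNFRSF10B by -0.85 (0.017). GADD45B moved by 0.70 (0.0049). The same block in edgeR gave close log2 values, -5.26, -1.58, -0.66, -1.07, -0.85 and 0.69 in that order with GADD45B last, and called none of the 6. No group had the 4 samples needed to test for a single outlying library.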

How the results depend on the processing

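With DESeq2's size factors, DESeq2 itself, limma-voom or a fit of only the 6 libraries compared, the number of genes called under WA, untreated, in both or in 1 condition stayed within 1.5 times the values reported, as far as each setting gave it. With no filter, 819 genes were called under WA (507 higher and 312 lower in MM1R, 57 list members), 811 untreated, 611 in both, 208 only under WA and 200 only untreated, and 11 for a change (361 at an unadjusted p below 0.05). With at least 10 reads in every library the values were 222 (123 higher, 99 lower, 15 list members), 234, 163 and 59 only under WA. An adjusted p of 0.05 with no limit on the fold gave 1690 genes under WA (893 higher, 797 lower) and 1681 untreated, and a test against a fold change of 2 gave 124 (64 higher, 60 lower) and 129. DESeq2 called 1 gene for a change.

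A fixed replicate block could not be fitted to the line difference, since the lines share no passage. For the change, the replicate block gave 0 genes in edgeR (286 at an unadjusted p below 0.05) and 6 in DESeq2. With passage as a random replicate block, limma-voom called 0 (337 unadjusted).

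Leaving out each library in turn gave 264 to 649 genes under WA (130 to 405 higher, 116 to 244 lower), 268 to 537 untreated, 231 to 429 in both, 27 to 220 only under WA, 32 to 177 only untreated and 28 to 41 list members, and 0 for a change each time (69 to 324 unadjusted). The highest count under WA came without the MM1S culture of passage 16 and the lowest without that of passage 22. Leaving out both libraries of passage 16, chosen after seeing the data, gave 817 under WA (549 higher), 755 untreated, 614 in both, 203 only under WA, 141 only untreated and 186 unadjusted for a change. Of 1053 recomputed differences of named genes under WA, 43 no longer passed the limits and 5 turned sign. The sign turned for EDA2R, which ranged from -0.33 to 0.031 with 1 library left out (0.031 without the MM1R culture of passage 4 and 0.0014 without the MM1S culture of passage 23). It also turned for LOC105377023, which ranged from -0.18 to 0.074 (0.021 without the MM1R culture of passage 6 and 0.074 without the MM1S culture of passage 16) and was 0.074 without both libraries of passage 16. Neither was called under WA. The calls of 8 genes depended on single libraries, with the highest edgeR adjusted p without the MM1R WA culture of passage 6 for PKP3 (0.027), ZBTB16 (0.038) and GRK3 (0.017), without passage 7 for ABCG1 (0.018), without the MM1S WA culture of passage 22 for PHLDA3 (0.037), CD79B (0.032) and HCG11 (0.016) and without passage 23 for ICAM1 (0.029). Each of the 8 also lost its call without 2 or more other libraries, taken 1 at a time. The cause of these shifts was not tested.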

Other observations

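Of 1129 tested long noncoding and uncharacterised entries (symbols starting with LOC or LINC), 35 were higher (3.10%) and 8 lower (0.709%) in MM1R under WA. Over all tested genes the shares were 1.63% and 1.41%. Untreated, 32 were higher and 7 lower. An entry silent in 1 line passed the filter through the other line alone, so that these counts support nothing on their own.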
